A study of Mus musculus with 18 samples.

Results

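The 9 genes of the interleukin-17 (IL-17) and interleukin-20 (IL-20) cytokine families described here were followed through single cells of mouse skin during the first days of stretch by a tissue expander. They were taken by symbol: the cytokines Il17a, Il17f, Il22, Il19 and Il24, and the receptor chains Il17ra, Il17rc, Il20ra and Il20rb. Each symbol matched 1 row among the 32285 genes of every matrix, so 9 of 32285 genes are described, all measured in each of 10 libraries. Il17a is ENSMUSG00000025929, Il17f ENSMUSG00000041872, Il22 ENSMUSG00000074695, Il19 ENSMUSG00000016524 and Il24 ENSMUSG00000026420. Of the receptor chains, Il17ra is ENSMUSG00000002897, Il17rc ENSMUSG00000030281, Il20ra ENSMUSG00000020007 and Il20rb ENSMUSG00000044244.

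Every mouse had back surgery, with a cut near the tail and a tunnel under the skin towards the neck. Expanded mice then carried a hydrogel expander under the skin, which swells and stretches it, and control mice had the surgery without an expander. Skin was taken on day 1, 2 or 4, living cells that exclude the dye DAPI were sorted, and 3′ ends of mRNA were sequenced in droplets. Each arm had 2 libraries on day 1 and 2 on day 2, from sequencing rounds 1 and 2, and 1 library on day 4. Mice of 1 arm and round were pooled in a single tube, which means that reaction and arm cannot be told apart. Hashing antibodies, which tag the cells of a mouse with a barcode, told 14 mice per arm apart in 8 of the 10 libraries, 3 of them from day 1, 7 from day 2 and 4 from day 4. In those libraries 98.6% to 99.9% of the cells of each immune class were given a mouse, but only 10.4% (dermal papilla) to 68.3% (suprabasal keratinocytes) in the other classes and 41.3% of fibroblasts, so values per mouse are given for immune classes alone. The labels give no strain, age or sex, and no unoperated skin was analysed here.

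From 55174 barcodes, 45488 cells were kept, with 1853 to 7956 in each library. Median depth was 6321.5 to 12755 unique molecular identifiers (UMIs, counted transcripts) per cell. Levels are UMIs of a gene per 1000000 UMIs of the same cells (CPM). Cultures or litters are not named in the labels, so p-values over libraries or mice measure the spread between these samples. Clustering without the 9 genes gave 17 cell classes named from marker genes and 5 unnamed clusters with 4716 cells. In some classes leading genes, or the marker list of another class, pointed beyond the name. The suprabasal keratinocyte class matched the marker list of basal keratinocytes as fully as its own. In the dendritic class, led by Ear2, Lyz1 and Mmp12, the macrophage list was the next best match. The basal keratinocyte class was led by Krt24 and Lhx2, the latter a hair follicle stem cell gene, the sebaceous gland class held the hair follicle keratins Krt25, Krt27 and Krt28 among its 10 leading genes, and the muscle class was led by the haemoglobin gene Hbb-bs. Fibroblasts made up 35.5% of control cells and 11.1% of expanded cells, suprabasal keratinocytes 2.90% and 6.63%, and the T cell class 6.85% and 10.3% (means of 5 libraries). Libraries shared 236 of 45252 distinct barcodes, at most 17 for any pair.

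IL-17A and IL-17F are secreted by lymphocytes of the type 17 kind, in mouse skin above all by dermal gamma delta T cells, and act on epithelial cells and fibroblasts through a receptor built from IL-17RA and IL-17RC. That receptor signals through the adaptor Act1, encoded by Traf3ip2, and raises chemokines that draw neutrophils and antimicrobial proteins. IL-22, also made by type 17 lymphocytes, and the IL-20 group with IL-19 and IL-24 signal through JAK and STAT proteins, and IL-19 and IL-24 use IL-20RB paired with IL-20RA. These cytokines are known in the epidermis for driving keratinocyte growth in wounds and in psoriasis.

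In the GRCm38 assembly (GENCODE M21 annotation), Il17a lies on chromosome 1 at 20730905-20734496 on the plus strand and Il17f on chromosome 1 at 20777146-20790617 on the minus strand. Il19 at 130932656-130940115 and Il24 at 130882074-130887454 both lie on the minus strand of chromosome 1. Il22 lies on chromosome 10 at 118204942-118210047. Il20ra is on chromosome 10 at 19712570-19760053, Il20rb on chromosome 9 at 100457719-100486788, Il17ra on chromosome 6 at 120463247-120487559 and Il17rc on chromosome 6 at 113471427-113483140. The RefSeq table of promoters (GRCm38.p6) matched 7 of the 9 genes. The 250 bases before the RefSeq start are shown for Il17a and Il17f, which were nearly always found in the same cell class, and for Il19, the cytokine called in fibroblasts. They span chr1:20730655-20730904 (plus strand), chr1:20784271-20784520 (minus strand, inside the annotated span of Il17f) and chr1:130940116-130940365 (minus strand), and capitals mark motif matches on either strand:
Il17a: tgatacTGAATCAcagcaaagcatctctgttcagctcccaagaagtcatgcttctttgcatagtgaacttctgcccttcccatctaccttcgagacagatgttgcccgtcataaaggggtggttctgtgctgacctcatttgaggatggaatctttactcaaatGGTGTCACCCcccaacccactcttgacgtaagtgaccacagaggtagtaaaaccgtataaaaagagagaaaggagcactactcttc
Il17f: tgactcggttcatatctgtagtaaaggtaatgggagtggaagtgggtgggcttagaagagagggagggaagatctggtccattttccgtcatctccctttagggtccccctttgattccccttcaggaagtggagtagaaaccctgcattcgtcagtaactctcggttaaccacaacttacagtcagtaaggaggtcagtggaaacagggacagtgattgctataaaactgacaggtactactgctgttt
Il19: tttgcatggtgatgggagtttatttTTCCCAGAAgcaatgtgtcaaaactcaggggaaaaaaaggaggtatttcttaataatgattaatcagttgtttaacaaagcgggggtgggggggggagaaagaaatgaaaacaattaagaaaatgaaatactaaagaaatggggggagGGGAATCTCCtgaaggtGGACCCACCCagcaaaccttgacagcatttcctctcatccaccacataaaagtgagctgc
Searched were AP-1 (TGANTCA), STAT (TTCNNNGAA), NF-kappaB (GGG and CC with any 5 bases between) and HIF (ACGTG), in the 300 bases from 250 before to 50 after the start. Il17a had 1 AP-1 and 1 NF-kappaB match and Il19 1 STAT and 2 NF-kappaB matches, while the windows of Il17f and Il22 held no match to the 4. Of 32851 promoters of the same length, 7.81% held the AP-1 letters, 8.30% the STAT letters, 50.8% the NF-kappaB letters and 19.6% the HIF letters. A match describes letters only.

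The 5 cytokines came from different cells. Il17a, Il17f and Il22 were found nearly entirely in the T cell class, which here includes innate lymphoid and natural killer cells: it held 97.7%, 97.7% and 96.2% of their UMIs. Il19 was a transcript of mesenchymal cells, at 21.0 CPM in dermal papilla cells (the mesenchymal base of the hair follicle), 13.9 in muscle cells (29 of 51 UMIs in a single cell) and 13.3 in fibroblasts, with 0.160 in the T cell class and 0.570 in macrophages. Il24 was epithelial, at 22 CPM in suprabasal keratinocytes, 16.9 in the sebaceous gland class and 5.52 in basal keratinocytes. Suprabasal keratinocytes held 65.2% of its UMIs.

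The receptor chains were spread differently from each other. Il17ra, the chain shared by several IL-17 receptors, was broad, at 83.0 CPM in fibroblasts, 77.9 in dermal papilla, 59.5 in neutrophils, 52.0 in pericytes and 49.0 in macrophages, and lowest in endothelial cells at 5.25. Its control libraries ran from 59.1 to 102 CPM in fibroblasts and from 44.2 to 64.3 in dermal papilla, so these neighbours in the order overlapped. Il17rc, its partner, was highest in keratinocytes, at 53.9 CPM in suprabasal and 26.3 in basal keratinocytes, followed by 18.8 in pericytes and 17.7 in fibroblasts. Schwann cells were close behind at 15.6, lymphatic endothelium at 14.1, melanocytes at 11.6 and blood endothelium at 8.99. Il17rc was under 1 in T cells, neutrophils, macrophages and dendritic cells. In control libraries it ran from 32.2 to 45.9 in suprabasal and from 15 to 31.2 in basal keratinocytes, without overlap. Il20rb was highest in suprabasal keratinocytes at 32.0, followed by lymphatic endothelium at 26.7, basal keratinocytes at 20.7 and blood endothelium at 10.7. The lymphatic control libraries ran from 9.41 to 39.2 and overlapped both keratinocyte classes. Il20ra was scarce, with 248 UMIs in all, 178 of them in suprabasal keratinocytes at 5.17 CPM, and 18 in natural killer or group 1 innate lymphoid cells at 4.37 CPM. Chains of both receptors were thus measured together at more than 5 CPM in suprabasal keratinocytes only, among the 17 named classes.

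**Figure D1:**
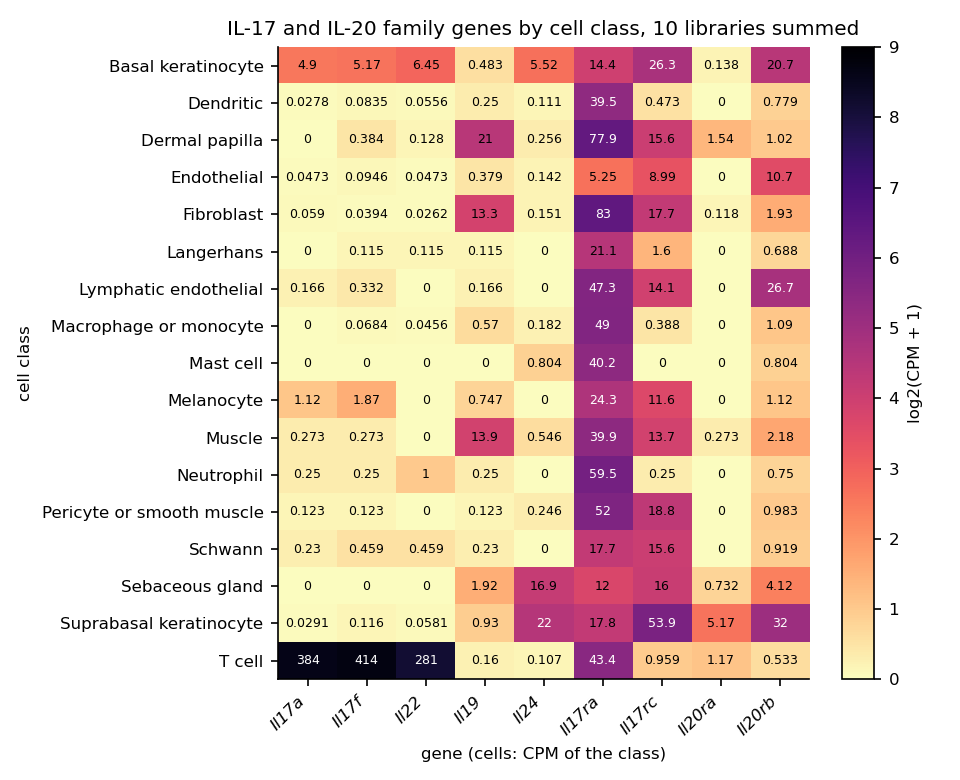
Heat map of the 9 genes (columns) in the 17 named cell classes (rows); colour is log2(CPM + 1) and the number in each cell is the CPM over the summed counts of 10 libraries. Il17a, Il17f and Il22 stand in the T cell row at 384, 414 and 281 CPM, Il19 in mesenchymal rows and Il24 in keratinocyte and sebaceous rows.

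The T cell class had 3858 cells, of which few carried most of the message. Il17a was found in 6.53% of them with 7205 UMIs, Il17f in 7.02% with 7778 UMIs and Il22 in 85 cells with 5276 UMIs. The 10 highest cells held 54.0% of the Il17a, 64.1% of the Il17f and 87.0% of the Il22 UMIs in the class, and 10, 10 and 8 of them were from expanded skin. Sub-clustering without the 9 genes separated 472 cells led by Blk, Il23r, Zbtb16 and Sox13, genes of the type 17 gamma delta lineage. This type 17 subset held 86.1% of the Il17a, 81.1% of the Il17f and 76.4% of the Il22 UMIs of the class. Conventional alpha beta T cells held 9.24%, 9.24% and 18.9%, and 512 group 2 innate lymphoid cells held 3.32%, 7.69% and 2.45%. The 1042 epidermal-type gamma delta T cells, the resident lymphocytes of mouse epidermis, held 1 Il17a, 30 Il17f and 96 Il22 UMIs, and 636 natural killer or group 1 innate cells held 0, 1 and 0. Il17a and Il17f were found together in 145 cells, 57.5% of the Il17a and 53.5% of the Il17f cells, whereas 35 cells with Il17a also had Il22, 41.2% of the Il22 cells. A near-identical gene copy, Iltifb, had 652 UMIs in the class, 615 of them in the expanded day 4 library, and how the authors' counting divided reads between the copies was not tested.

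Il17a in the T cell class stood at 203 and 183 CPM in the control libraries of day 1, at 284 and 81.1 on day 2 and at 242 on day 4 (rounds 1 and 2 in order). Its expanded libraries were at 110 and 195 on day 1, 295 and 1076 on day 2, and 1593 on day 4. Expanded libraries were within the control range on day 1, just above its upper end in round 1 of day 2, and well above it in round 2 of day 2 and on day 4. Il17f followed, with controls at 115, 126, 97.7, 32.7 and 179 CPM and expanded libraries at 128, 178, 110, 1123 and 2328. Il22, at 35.6, 64.1, 2.54, 43.8 and 20.8 CPM in controls, stood at 2.00, 32.1, 45.6, 328 and 2279 in expanded libraries. The log2 fold change over all days was 1.09 (SE 0.55, edgeR adjusted p = 0.415) for Il17a, 2.10 (SE 0.70, edgeR adjusted p = 0.209) for Il17f and 1.68 (SE 1.19, edgeR adjusted p = 0.57) for Il22. These differences did not pass the test, in a class in which edgeR called 0.745% of 8459 genes. The effect of the arm differed between days with an unadjusted p of 0.0225, 0.0322 and 0.00266 for Il17a, Il17f and Il22 in edgeR's interaction test. Adjusted p was 1.000 for each and 0 genes were called (0%), while 2.81% of genes had an unadjusted p under 0.05. Markers of other cells moved in the T cell class: the summed fibroblast list ran from 451 to 2047 CPM in control and 28.8 to 593 in expanded libraries (6 of 6 markers lower on average, none at 0 in every library), and the neutrophil list from 0 to 10.3 and from 6.68 to 38.6 (5 of 6 markers higher on average). Their part in these values was not tested.

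Among hashed mice, the day 4 groups were apart. Il17a was at 42.7, 230, 410 and 433 CPM in the 4 control mice and at 1044, 1462, 1595 and 1936 in the 4 expanded mice. The groups did not overlap, at 279 ± 182 against 1509 ± 369 CPM (SD, n = 4 each). Il17f ran from 49.1 to 342 in control and from 1700 to 3263 in expanded mice, and Il22 from 10.7 to 39.4 and from 1417 to 3545, again without overlap. The exact two-sided permutation p was 0.0286 for each, the smallest that 4 against 4 allows, and 0.470 after adjustment over 10454 genes, of which 3.92% were likewise higher in every expanded mouse. Few cells stood behind these values: Il22 was found in 4, 8, 10 and 2 cells of the 4 expanded mice, and the highest cell of each held 753 of 798, 661 of 717, 613 of 1559 and 1251 of 1252 UMIs. Il17a was found in 38 of 303 T cells of that library (12.5%), at 79.7 UMIs per positive cell, against 20 of 339 (5.90%) at 16.8 in the control library.

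On day 2 the mice overlapped. Il17a ran from 15.9 to 712 CPM in 7 control mice (median 62.1) and from 0 to 2136 in 7 expanded mice (median 200), with an exact permutation p of 0.527, and p was 0.624 for Il17f and 0.396 for Il22. A single expanded mouse, mouse 2 of round 2, stood at 2136, 2297 and 624 CPM for Il17a, Il17f and Il22, and held 1269 of the 1309 Il17a UMIs of its library. Without it the exact permutation p was 0.937, 0.919 and 0.820. On day 1, when 3 mice against 3 cannot give a p under 0.10, the exact permutation p was 0.70, 0.40 and 0.60. There, 1 expanded mouse supplied 871 of the 1027 T cells of its library. Over all days, 14 mice against 14 permuted within day and round, means were 215 and 700 CPM for Il17a (p = 0.0108, adjusted p = 0.169), 119 and 867 for Il17f (p = 0.0113, adjusted p = 0.172) and 29.9 and 756 for Il22 (p = 0.00486, adjusted p = 0.118), by permutation tests that called 1.76% of genes. In edgeR over the same mice, a test added after the data were seen, Il22 rose by 2.96 on the log2 scale (SE 0.80, adjusted p = 0.0252), while the adjusted p was 0.0663 for Il17f and 0.153 for Il17a. That test called 6.15% of genes, 2.90% higher.

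**Figure D2:**
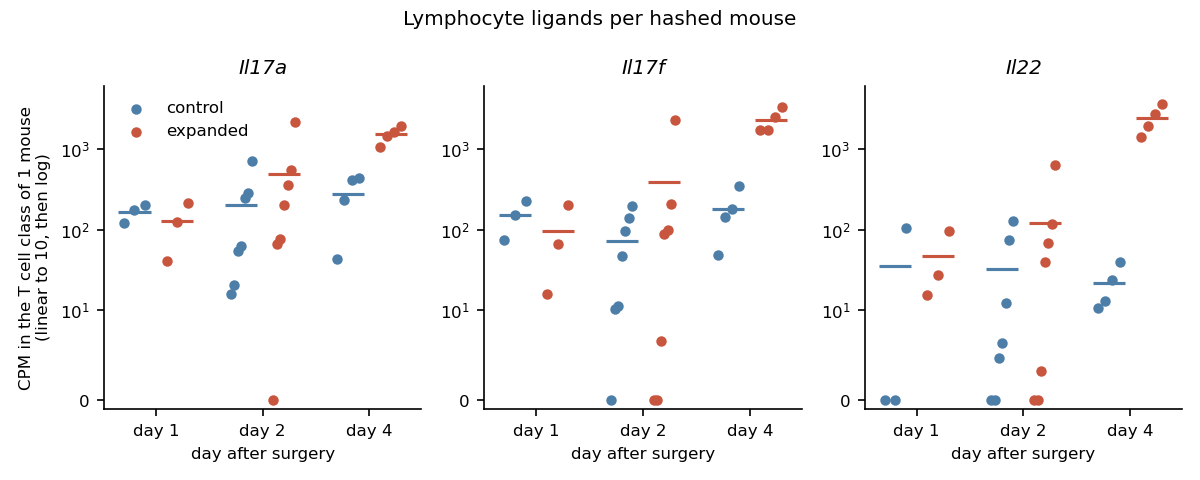
CPM of Il17a, Il17f and Il22 in the T cell class of each hashed mouse (points) by day and arm; bars are group means, and the vertical axis is linear up to 10 and logarithmic above. On day 4 all 4 expanded mice lie above all 4 control mice for each gene, and on day 2 a single expanded mouse at 2136, 2297 and 624 CPM stands above the others.

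Within the type 17 gamma delta T cells, 13 to 114 cells per library, Il17f was at 345, 328, 381, 142 and 803 CPM in the control and 1001, 662, 611, 9410 and 10786 in the expanded libraries, in the order of days and rounds. It was higher in the expanded library of all 5 pairs, although the arms overlapped, by 3.09 on the log2 scale (SE 0.64, edgeR adjusted p = 0.0404, 0.451% of 2441 genes called). The call was lost in 5 of 10 fits that left out a library (both control libraries of day 2, the expanded library of round 2 of day 2, and either day 4 library), with edgeR adjusted p from 0.00381 to 0.249, and with the pairs of day and round as blocks (2.60, edgeR adjusted p = 0.0598). The log2 difference was 1.70 for Il17a (SE 0.47, edgeR adjusted p = 0.197) and 3.91 for Il22 (SE 1.21, edgeR adjusted p = 0.280), neither past the threshold. Of 10 fits that left out a library, 9 likewise did not pass for each of these 2 genes. The edgeR adjusted p ran up to 0.692 for Il17a and 0.763 for Il22. The fit that passed left out the control library of day 1 round 1, with edgeR adjusted p of 0.0303 for Il17a (1.98) and 1.10e-04 for Il22 (6.17). That library had the highest Il22 of the controls, 273 CPM. The subset with 10 or more cells per library was tested after the data were seen. With each cell thinned to 2000 UMIs, 28.2% of these cells in control and 42.1% in expanded libraries had an Il17a UMI (exact permutation p = 0.0317, n = 5 each), and 14.9% and 33.2% an Il17f UMI (exact permutation p = 0.0238). Unthinned shares were 33.6% and 45.2% for Il17a (exact permutation p = 0.135) and 22.7% and 40.5% for Il17f (exact permutation p = 0.0317), at median depths of 3762 and 5435 UMIs, so the Il17a shares passed 0.05 only when thinned. In fibroblasts, which should lack both genes and had median depths of 11008 and 16095.5 UMIs, thinned shares were at most 0.0226% and unthinned shares at most 0.395%. Thinning left out 18 control and 2 expanded cells of the subset. The share of this subset did not pass the test, at 13.5% ± 2.76 of the T cell class in control and 10.5% ± 3.25 in expanded libraries (SD, n = 5, exact permutation p = 0.143, adjusted p = 0.429 over 6 subsets), and the adjusted p of the other 5 subsets was 0.429 or more.

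Il19, a cytokine of the IL-20 group, rose in fibroblasts. Its control libraries stood at 0.929 and 3.10 CPM for day 1, 6.74 and 8.09 for day 2 and 8.23 for day 4, and the expanded libraries at 10.3, 41.9, 104, 50.7 and 68.9. The lowest expanded library was above the highest control, at means of 55.2 ± 34.6 against 5.42 ± 3.25 CPM (SD, n = 5 each). It rose by 3.25 on the log2 scale (SE 0.41, edgeR adjusted p = 3.60e-04). In fibroblasts 35.4% of 12365 genes were called, 17.8% as higher, and 12.9% of genes were higher in every expanded library. With cells thinned to 2000 UMIs, 0.899% of control and 6.41% of expanded fibroblasts had an Il19 UMI (exact permutation p = 0.00794, the smallest 5 against 5 allows). Unthinned shares were 4.08% and 16.6% at median depths of 11008 and 16095.5 UMIs, and T cells, at depths of 3725 and 4743, had thinned shares of 0.0336% and 0.103%.

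The fibroblast class was made up of different clusters in the arms. Cluster 0 (led by Rian, Meg3 and Cpz) held 41.1% of control and 9.62% of expanded fibroblasts, cluster 1 (Cilp, Ccl19) 28.9% and 17.6%, cluster 3 (Cadps, Igfbp2, Mme, Mmp3) 21.1% and 56.9%, and cluster 14 (Myoc, Apod) 8.88% and 15.8%. Within cluster 14, Il19 ran from 0 to 1.34 CPM in control and from 30.3 to 192 in expanded libraries. In cluster 3 it ran from 1.88 to 15.6 and from 8.65 to 113, with overlap. Il19 ran from 0.748 to 8.01 and from 0 to 25.0 in cluster 0, where expanded libraries had as few as 5 cells. In cluster 1 it ran from 0.778 to 11.7 and from 2.24 to 23.7, with overlap and as few as 9 expanded cells. Over the summed counts of each arm, cluster 0 was at 3.04 CPM in control and 2.35 in expanded cells, and cluster 1 at 3.79 and 13.6. These clusters are given as levels, with no test. Markers of other cells moved in the same libraries: the summed neutrophil list ran from 4.36 to 10.7 CPM in control and 19.4 to 173 in expanded fibroblasts (6 of 6 markers higher on average), and the dermal papilla list from 30 to 165 and from 124 to 1653 (5 of 6 higher). The fibroblast list itself ran from 69838 to 183778 and from 32290 to 84683. Neutrophils had 0.250 CPM of Il19, and dermal papilla cells 0.873 in control and 49.6 in expanded skin (summed counts). The part of these cells in the result was not tested.

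In dermal papilla cells, few in number, control and expanded libraries did not overlap. Il19 was at 0, 0, 0, 1.34 and 0.674 CPM in control and 47.6, 67.4, 80.5, 61.5 and 27.8 in expanded libraries. Controls held 4 UMIs in 870 cells and expanded libraries 160 in 555 cells. With a minimum of 5 cells per library, a limit set after the data were seen, the exact permutation p was 0.00794, and 0.353 after adjustment over 12726 genes, of which 1.32% were higher in every expanded library. The smallest libraries had 13 and 19 control and 9 expanded cells, and a count of 0 there allows up to 27.6 and 26.5 CPM in control. With at least 20 cells, 3 against 4 libraries, p was 0.0571 by the exact permutation test. In muscle cells, with 6 UMIs in control and 45 in expanded libraries, the exact permutation p was 0.0476. Of the 45 UMIs, 31 were in the expanded library of day 2 round 1, 29 of them in 1 cell.

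**Figure D3:**
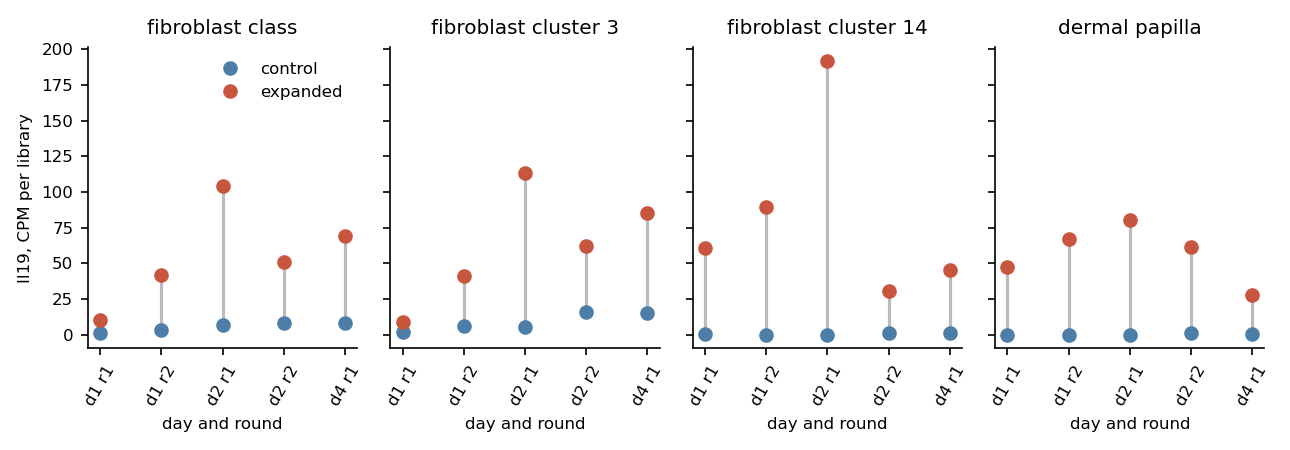
Il19 in CPM per library for the fibroblast class, its clusters 3 and 14, and dermal papilla cells; each grey line joins the control and the expanded library of 1 day (d) and round (r). Expanded points lie above their control in all 5 pairs of each panel, and control points of cluster 14 and dermal papilla stay at or below 1.34 CPM.

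Il24, known as an epithelial cytokine of the IL-20 group, fell in suprabasal keratinocytes and was higher, without passing the adjusted test, in the sebaceous gland class. In suprabasal keratinocytes it was at 11.4, 25.1, 21.4, 22.6 and 83.0 CPM in control and 8.37, 11.2, 18.9, 20.5 and 47.1 in expanded libraries, in the order of days and rounds. The arms overlapped, but each expanded library was below its control, and the day 4 libraries of both arms were the highest. Il24 fell by 0.77 on the log2 scale (SE 0.22, edgeR adjusted p = 0.0218), in a class where 25.1% of 9829 genes were called, 12.7% as lower. The call was lost without the control library of day 1 round 2 (a log2 change of -0.50), without the control library of day 4 and without the expanded library of day 4 (edgeR adjusted p = 0.0778, 0.0976 and 0.0911). Few cells carried the gene: 8 UMIs of the control library of day 2 round 1 and 28 UMIs of the expanded library of day 2 round 2 were each in 1 cell. The thinned share of cells with Il24 was 3.18% in control and 2.20% in expanded libraries (exact permutation p = 0.421), unthinned 6.92% and 5.59% at median depths of 10440 and 16266 UMIs, against a thinned 0.00658% in control fibroblasts. Markers of other cells moved in the suprabasal class: the summed basal keratinocyte list ran from 12565 to 15559 CPM in control and from 15990 to 19590 in expanded libraries, without overlap (5 of 6 markers higher on average). The fibroblast list ran from 405 to 11333 and from 11.0 to 3693 (6 of 6 markers lower on average). Basal keratinocytes had 5.52 CPM of Il24 against 22 in suprabasal cells, and the part of these shifts in the fall was not tested.

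In the sebaceous gland class Il24 was at 4.38, 4.73, 0, 3.38 and 9.31 CPM in control libraries and at 16.4, 22, 36.2, 26.1 and 54.7 in expanded libraries. The groups did not overlap, and 1.14% of 12680 genes were higher in every expanded library. The exact permutation p was 0.00794 and the adjusted p 0.384, with libraries of 5 or more cells, a limit set after the data were seen. The control value of 0 came from 8 cells and allows up to 38.1 CPM. With at least 20 cells, 4 control libraries against 3, where 4.60% of genes were higher in every expanded library, the exact permutation p was 0.0286, the smallest possible, and 0.495 adjusted. On day 4, the deepest pair, 13 of 146 control cells and 29 of 83 expanded cells had an Il24 UMI, 8.90% and 34.9%, and with cells thinned to 2000 UMIs the shares were 1.55% and 6.67%. Over libraries with at least 5 deep enough cells, thinned shares were 0.654% in control and 3.42% in expanded skin (4 against 5 libraries, exact permutation p = 0.175), and unthinned shares 5.99% and 16.9% (exact permutation p = 0.0238). The summed suprabasal marker list in this class ran from 2491 to 5281 CPM in control and 3688 to 5092 in expanded libraries, and its part in the result was not tested. Whether the effect of the arm differed between the classes was not tested.

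Il17ra, which every IL-17A response needs, fell in suprabasal keratinocytes. Its control libraries were at 32.3, 29.0, 26.8, 13.1 and 15.4 CPM and the expanded libraries at 16.1, 19.3, 10.4, 8.07 and 10.1. Each expanded library was below its control, and the arms overlapped. The log2 change was -0.87 (SE 0.19, edgeR adjusted p = 0.00637). This difference kept its call without each library in turn, with edgeR adjusted p from 0.00357 to 0.0266. The basal keratinocyte markers, higher in every expanded library of this class, and the fibroblast markers moved as given for Il24. Basal keratinocytes had 14.4 CPM of Il17ra against 17.8 in suprabasal cells, and the part of the basal markers in the fall was not tested. At the ratio of Il17ra to the fibroblast markers in fibroblasts, the share of fibroblast transcripts corresponded to 0.216 to 6.29 CPM of Il17ra in control and 0.0299 to 3.32 in expanded libraries. After subtraction, Il17ra was at 21.2 ± 6.76 in control and 11.7 ± 3.61 CPM in expanded libraries (SD, n = 5, exact permutation p = 0.0397, unadjusted). The subtraction takes that ratio to hold for the fibroblast transcripts in this class, which was not tested, and does not touch the basal markers.

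Il17ra was higher per mouse in dendritic cells and in macrophages and monocytes of expanded skin, and did not pass the test in the other myeloid classes. In dendritic cells it ran from 27.5 to 46.1 CPM in control and from 47.5 to 63.3 in expanded libraries, without overlap, at 35.0 ± 7.82 against 53.8 ± 6.66 (SD, n = 5 each). The difference, 0.44 on the log2 scale (SE 0.15, edgeR adjusted p = 0.0694), did not pass the test over libraries, in a class where 15.3% of 9006 genes did and 6.08% were higher in every expanded library. Per mouse, 14 control mice had 32.7 ± 8.99 and 10 expanded mice 50 ± 11.1 CPM (SD; permutation p = 5.70e-04, adjusted p = 0.00702, 19.3% of 13481 genes called). On day 4 the 4 control mice ran from 23.7 to 34.7 CPM and the 4 expanded mice from 43.9 to 64.1, where 10.3% of genes were higher in every expanded mouse. Macrophages and monocytes had 35.1 ± 18.6 CPM in 13 control and 57.6 ± 18.3 in 12 expanded mice (SD; permutation p = 0.00358, adjusted p = 0.0155, 31.9% of 13751 genes called), while over libraries the log2 fold change was 0.25 (SE 0.34, edgeR adjusted p = 0.619). With mice of 10 or more cells, the macrophage difference had a permutation adjusted p of 0.0718. This class was made up of different clusters in the arms: cluster 7 (led by Chil3, Ppbp and Arg1) held 9.34% of its control and 90.7% of its expanded cells, and cluster 8 (C1qc, C1qb and C1qa) 84.7% and 8.42%. Over the summed counts of each arm, given as levels with no test, Il17ra was at 49.2 CPM in control and 52.1 in expanded cells of cluster 7, and at 45 and 45.8 in cluster 8. In cluster 27 (Ccl8, Cd209f and Folr2), with 150 control and 20 expanded cells, Il17ra had 0 and 1 UMIs. The Langerhans class, named for the dendritic cells of the epidermis but with leading genes beyond that name, had 22 ± 15.4 CPM in 13 control and 15.1 ± 10.8 in 9 expanded mice with 10 or more cells (SD, permutation p = 0.238, adjusted p = 0.465). With 20 or more cells, 4 control and 2 expanded mice of this class were at 19.6 and 20.1 CPM. Mast cells had 66.8 ± 62.0 CPM in 6 control and 53.8 ± 47.5 in 5 expanded mice (SD; permutation p = 0.708), and neutrophils 46.4 ± 49.5 in 4 and 75 ± 31.9 in 9 (SD; permutation p = 0.241), again with 10 or more cells. In dermal papilla cells Il17ra was at 45.9, 52.0, 44.2, 64.3 and 60 CPM in control and 66.6, 140, 125, 85.5 and 98.8 in expanded libraries (exact permutation p = 0.00794, adjusted p = 0.353). T cells had 35.3 ± 4.48 and 48.6 ± 8.71 CPM (SD, n = 5; edgeR adjusted p = 0.338). Fibroblasts, the class with the highest level over the summed counts of both arms, had 77.0 ± 17.8 and 83.0 ± 20.3 CPM. The edgeR log2 difference was -0.12, with a 95% interval from -0.40 to 0.16 (edgeR adjusted p = 0.546).

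**Figure D4:**
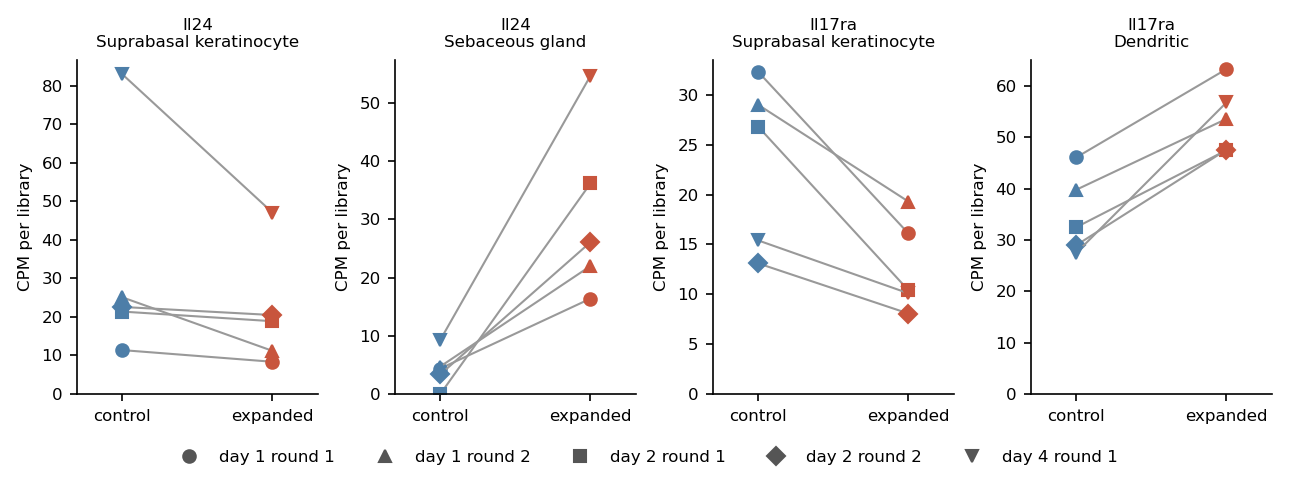
CPM per library of Il24 in suprabasal keratinocytes and the sebaceous gland class, and of Il17ra in suprabasal keratinocytes and dendritic cells; lines join the control and expanded library of 1 day and round, and the symbol marks the pair. All 5 lines fall for Il24 and Il17ra in suprabasal keratinocytes and rise for Il24 in the sebaceous gland class and Il17ra in dendritic cells.

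No difference of Il17rc, Il20ra or Il20rb between the arms passed the test in any class tested. Il17rc in suprabasal keratinocytes was at 39.8 ± 6.35 CPM in control and 54.0 ± 16.5 in expanded libraries (SD, n = 5; log2 fold change 0.27, SE 0.14, edgeR adjusted p = 0.195), with day 1 libraries at 43.0 and 45.9 against 63.6 and 72.1 and day 4 libraries at 33.8 against 32.3. Il20rb in the same cells was at 29.9 ± 5.0 and 29.1 ± 8.29 CPM (edgeR adjusted p = 0.594), and Il20ra at 4.60 ± 1.63 and 4.33 ± 2.32 (edgeR adjusted p = 0.989). The 95% interval of the log2 difference ran from -0.02 to 0.55 for Il17rc, from -0.47 to 0.19 for Il20rb and from -0.68 to 0.70 for Il20ra. Of 27 pairs of a gene and a class that passed the filter on low counts, 3 were called: Il19 higher in fibroblasts, and Il24 and Il17ra lower in suprabasal keratinocytes. In these 2 classes 35.4% and 25.1% of all genes tested were called, so nothing is read from this count. A further 34 pairs below the filter were tested by exact permutation, of which 3 had an unadjusted p under 0.05 and 0 an adjusted p of 0.05 or less. No share over all genes is given for these pairs, and nothing is read from their count either.

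**Figure D5:**
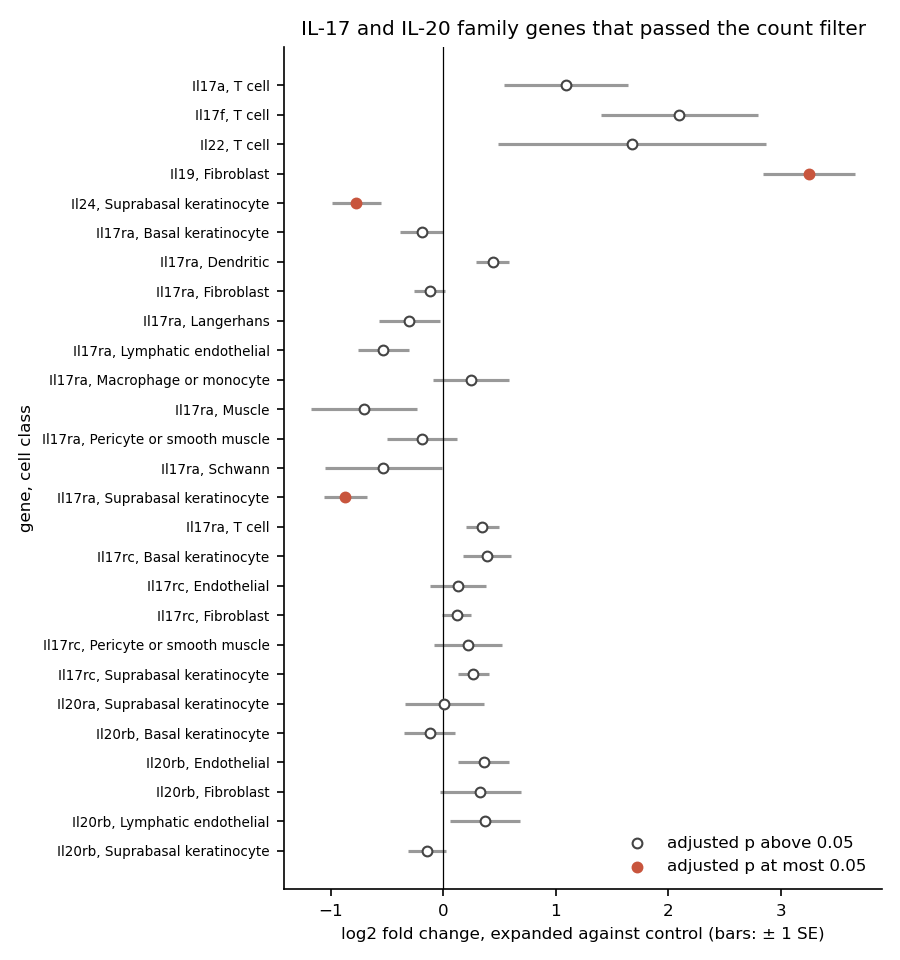
Log2 fold change, expanded against control, with 1 SE on either side, for each of the 9 genes in each class where it passed the filter on low counts (edgeR, 10 libraries, 8 in Schwann cells); filled points have an adjusted p of at most 0.05. Filled points are Il19 in fibroblasts at 3.25, Il24 in suprabasal keratinocytes at -0.77 and Il17ra in suprabasal keratinocytes at -0.87. Of all genes tested, 35.4% were called in fibroblasts and 25.1% in suprabasal keratinocytes.

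Over all kept cells of a library, where a change in the number of cells of a type and a change of RNA per cell cannot be told apart, 3 of the 9 genes were called, against 26.3% of 16510 genes. Il17f was at 3.62 ± 1.80 CPM in control and 44.2 ± 52.9 in expanded libraries (log2 fold change 2.82, SE 0.91, edgeR adjusted p = 0.0472), a call lost with pairs of day and round as blocks (2.38, edgeR adjusted p = 0.0847) and without any of 7 libraries in turn (up to 0.181). Il19 was at 2.50 ± 1.23 and 9.95 ± 6.08 CPM (1.88, SE 0.31, edgeR adjusted p = 0.00427), and Il20rb at 3.49 ± 1.08 and 8.40 ± 4.55 (0.93, SE 0.28, edgeR adjusted p = 0.0352), the latter lost without any of 8 libraries in turn (up to 0.114). Il24 (edgeR adjusted p = 0.0659) and Il20ra (0.0593) did not pass, and did so in the blocked fit, at 0.0360 and 0.0396. Keratinocytes, the main source of Il20rb, Il20ra and Il24, had larger mean shares in expanded libraries, with overlap between the arms. Suprabasal keratinocytes were at 2.90% in control and 6.63% in expanded libraries, and basal keratinocytes at 2.60% and 8.14%. The part of these shares in the values over all cells was not tested.

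Genes downstream of these cytokines were read from lists of the pathway. Of 17 genes known to be induced by IL-17, 10 passed the count filter in fibroblasts and were called higher. Genes near 0 in control, such as S100a8, Cxcl5 and Lcn2, could pass the filter through the expanded libraries alone and then had to differ, so this count is not set against all genes. The neutrophil chemokine Cxcl5 stood at 2.27 ± 3.05 CPM in control and 430 ± 377 in expanded fibroblasts (log2 fold change 7.46, SE 1.04, edgeR adjusted p = 5.22e-04). Lcn2, an iron-binding antimicrobial protein, stood at 2.56 and 92.2 CPM (4.98, SE 0.65, edgeR adjusted p = 3.98e-04), and S100a8, a neutrophil protein, at 0.257 and 26.7 (6.28, SE 0.73, edgeR adjusted p = 2.72e-04). S100a8 and S100a9 are also 2 of the 6 neutrophil markers whose rise in the fibroblast class is given above. Cxcl1, Cxcl2, Cxcl3, Csf3, S100a9, Mmp13 and Mmp3 rose by 1.68 to 5.84.

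In suprabasal keratinocytes 4 of 7 tested genes of this list rose: Lcn2 from 31.7 to 246 CPM (2.78, SE 0.28, edgeR adjusted p = 1.93e-04), S100a9 from 1.94 to 261 (5.83, SE 0.81, edgeR adjusted p = 0.00103), S100a8 and Cxcl1, where 12.4% of all genes tested were called higher. S100a8 and S100a9 are neutrophil genes near 0 in control and could pass the filter through the expanded libraries alone, so nothing is read from this count. Basal keratinocytes, with 0.986% of 9639 genes called in either direction, had 1 of 6 higher, Lcn2, at 4.03 CPM in control and 56.9 in expanded libraries. Lcn2, low in control, could pass the filter there through the expanded libraries alone, so nothing is read from this count either. Other classes differed. In blood endothelium (12.3% of 9392 genes called in either direction) Cxcl1 and Cxcl2 fell by 1.53 and 1.90 and Lcn2 rose by 2.99. Mmp3 rose in muscle cells (3.43), Lcn2 in lymphatic endothelium (1.32) and S100a8 in dendritic cells (3.48). In macrophages (26.8% of 9682 genes called in either direction) Cxcl1 fell by 0.98 from 2828 to 1551 CPM while Lcn2 and S100a8 rose. Lcn2, at 7.98 CPM in blood endothelial and 2.73 in macrophage controls, could pass the filter through the expanded libraries alone. The same holds for S100a8, at 1.21 in dendritic controls. The macrophage values come mostly from cluster 8 in control and from cluster 7 in expanded skin, and Cxcl1 was at 2892 and 2001 CPM in cluster 8 and at 2413 and 1638 in cluster 7 (control and expanded, summed counts, no test). In the T cell class Csf2, a cytokine also made by type 17 cells, fell from 83.2 to 30.3 CPM (-1.65, SE 0.30, edgeR adjusted p = 0.0326).

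Of 9 keratinocyte genes known to respond to the IL-20 family, 5 were tested in suprabasal keratinocytes. The wound keratins Krt6a (361 to 1161 CPM, 1.58), Krt6b (5.25 to 66.0, 4.10) and Krt16 (165 to 472, 1.40) rose, where 12.4% of all genes were called higher. Krt17 did not pass (0.38, edgeR adjusted p = 0.171), and Krt6b, low in control, could pass the filter through the expanded libraries alone. Il1rn, the interleukin-1 receptor antagonist, fell from 57.4 to 29.1 (-1.27, edgeR adjusted p = 0.00842). In basal keratinocytes Krt6a (0.20), Krt16 (-1.17), Krt17 (-0.48) and Il1rn (-0.25) were not called. Of 13 signal transduction genes, 4 of 13 fell and 0 rose in fibroblasts (Traf5, Cebpd, Jak1 and Cebpb), where 17.5% of all genes were called lower. In suprabasal keratinocytes 4 of 13 fell and 0 rose (Jak1, Nfkbiz, Cebpb and Traf3ip2), where 12.7% of all genes were called lower. Traf3ip2, which encodes Act1, fell from 23.2 to 17.9 CPM (-0.47, SE 0.15, edgeR adjusted p = 0.0339). Among other receptor chains, Il17rb and Il17rd, the latter a modulator of IL-17 signalling, fell in fibroblasts (-1.92 and -0.58), as did Il17rd in suprabasal keratinocytes (-0.95). Among other ligands, Il17d rose in fibroblasts (0.66, edgeR adjusted p = 0.0412). Il23a, a subunit of interleukin-23, which sustains type 17 cells, was called over all kept cells, from 1.11 to 8.75 CPM (2.61, SE 0.45, edgeR adjusted p = 0.00478).

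Across the 17 classes, the genes whose summed levels were most like each gene's were ranked by Pearson's r of log2(CPM + 1) over 16599 genes, as a description of points that share libraries and depth. Il17a was closest to Il17f (0.998), Iltifb (0.991) and Il22 (0.984). Il24 was closest to Fgfbp1 (0.986), Sdr16c5 (0.983) and Foxn1 (0.982), the latter a transcription factor of differentiating keratinocytes. Il19 was closest to Bdkrb1 (0.972) and Sfrp2 (0.962), Il17rc to Myc (0.943), Il20rb to Gata6 (0.921), Il20ra to Syt12 (0.873) and Il17ra to Vegfa (0.777).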

How the data were processed

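Droplet 3′ mRNA libraries were deposited as UMI counts per gene and cell barcode, for which the authors ran Cell Ranger 6.1.2 on mouse build mm10, per the submitters' processing notes, with hashing antibody counts for 8 of the 10 libraries. Kept barcodes had 200 or more genes, 500 or more UMIs and a mitochondrial share of 10% or less, and 1763 doublets were removed (Scrublet, which marked 0.0584 to 2.97% per library, and hashtags in Seurat 5.3.0). Cells were clustered in scanpy 1.11.5 with leidenalg 0.10.2 (2000 variable genes, 30 components, 15 neighbours, resolution 1), without the 9 genes, and clusters were named from marker lists.

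Counts were summed per class and library (at least 20 cells) and tested with edgeR 4.0.16 (quasi-likelihood, TMM, filterByExpr, day as a factor, 12 classes with at least 4 libraries per arm). Benjamini-Hochberg adjustment ran over all genes tested in a class, and an adjusted p of at most 0.05 was called. Genes below the filter, values per hashed mouse (at least 20 cells) and shares were tested by exact two-sided permutation, or 100000 resamples over all days. Thinned shares drew 2000 UMIs per cell. The smallest level that a count of 0 excludes was set at 3 counts and, like all intervals on single libraries, covers counting error only. Scripts were tested on simulated data.

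The 9 genes and all lists were chosen with earlier results of these data known. Besides the 9 genes, those named were the 3 called genes with the smallest adjusted p of each list and class that moved the same way in every pair of day and round, and the genes with the most alike pattern over classes. Other called genes of a list were named after their values were seen. The labels give each pair of libraries a shared sequencing round. Within-round correlations of deviations from the group means were 0.30 and 0.03 in fibroblasts and 0.24 and 0.13 in T cells (days 1 and 2), and a fit with pairs as blocks was run. Alternatives were RLE scaling, no low-count filter, DESeq2 1.42.0, thinning, a 5% mitochondrial limit, clustering at resolution 2 and leaving out each library. One gene list and one motif are not reported here.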

Additional observations from a re-analysis of the deposited data

Results flagged for a closer look

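In 9 of 54 groups of libraries or mice, the highest or lowest sample stood apart from the others by Dixon's 95% limit. Independent, normally distributed values pass that limit in about 1 group of 20. The groups here share mice, libraries and cells, so nothing is read from the count. In the T cell class, Il22 reached 2279 CPM in the expanded library of day 4, with the other expanded libraries between 2.00 and 328. In dermal gamma delta T cells of the type 17 kind, Il22 was at 9309 CPM in the expanded library of day 4 and at 273 CPM in the day 1 round 1 library of control skin, the highest of their arms. Il24 in suprabasal keratinocytes stood at 83.0 CPM in the control library of day 4, against 25.1 or less in the other controls. Il20rb in blood endothelium was lowest in round 1 of day 2 among the controls, at 3.30 CPM.

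Among hashed mice of day 2, the T cells of control mouse 1 of round 1 had 712 CPM of Il17a. Expanded mouse 2 of round 2 had 2136 CPM of Il17a, 2297 of Il17f and 624 of Il22, each the highest of its group. Of its 1269 Il17a UMIs, 804 were in 1 cell.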

How the results depend on the processing

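Within classes over libraries, 3 pairs of gene and class were called, and 2 to 3 with 1 library left out. That number was 11 without the low-count filter, where Il17a, Il17f and Il22 in T cells had edgeR adjusted p of 6.28e-11, 1.46e-37 and 9.17e-16 (the cause was not tested). It was 1 with cells thinned to 2000 UMIs, since Il24 and Il17ra in suprabasal keratinocytes no longer passed the count filter there. With pairs of day and round as blocks, the replicate block, it was 3, with Il19 in fibroblasts, Il24 and Il17ra in suprabasal keratinocytes again called. Over all kept cells 3 genes were called, 5 with DESeq2 and 4 with the replicate block, and 1 to 4 with a library left out (the cause was not tested). Where the block changed a call, its value stands beside the result, and it changed no other call. The arm effect differed between days for 0 pairs, and for 4 without the low-count filter (the cause was not tested). Per hashed mouse, 2 pairs were called, 1 with mice of at least 10 cells, and 0 for T cells on the log2(CPM + 1) scale (the cause was not tested). No called difference changed sign. Among differences that did not pass, Il17f in T cells of day 2 was 314 CPM higher in expanded mice and -4.52 without expanded mouse 2 of round 2. Il17ra in the Langerhans class was at 0.482 with 20 or more cells per mouse and -6.90 with 10 or more. Il20ra in T cells was at -0.0723 CPM over all days, 0.0464 without that mouse and 0.116 on the log2(CPM + 1) scale.

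Depth limits Il20ra (248 UMIs in all) and classes with under 20 cells in a library. Day 4 rests on 1 library per arm.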

Other observations

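Some cells outside the named classes also carried these genes. In the unnamed cluster led by Hapln1 and Lrrc15, Il19 was at 0.394 CPM in control and 4.11 in expanded cells, and in the unnamed cluster led by Coch and Fmod at 0.332 and 1.61. In the sebaceous gland class Il19 had 1 UMI in 471 control cells and 20 in 171 expanded cells. A single cell of the basal keratinocyte class, from expanded mouse 4 of day 4, held 141 Il17a, 146 Il17f and 187 Il22 UMIs among 34884, with 4 UMIs of the T cell gene Cd3e and 166 of the keratinocyte gene Krt14. The rest of that class held 1, 4 and 0 UMIs of the 3 cytokines.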
